A study of Mus musculus with 6 samples.

Results

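The smooth muscle and contractile genes described here are Acta2, Actg2, Tagln, Cnn1, Myl9, Myh11, Myh9, Tpm1, Tpm2 and Des, found by symbol in a table of 32285 genes. They are 10 genes, and 8 of them had enough reads to be tested with 14814 genes in all; Cnn1 and Actg2 did not. RNA was sequenced from GS cells, germline stem cell cultures derived from mouse testes that are labelled as spermatogonia. The 3 p57 KO libraries came from p57 flox/flox-Cre cells, in which an adenovirus carried Cre recombinase, and the 3 control libraries from p57 flox/flox cells, so both groups carry loxP sites in Cdkn1c, which encodes p57, an inhibitor of cyclin-dependent kinases. The cells were taken 2 days after infection, dissociated with trypsin and passed through a Sephadex column. The growth protocol puts the age of the mice at 3 days and the design text at 10 days, and the labels give both BDF1 and a background of C57BL/6 and 129. The sources used here do not say whether control cells received a virus or whether the replicates were separate cultures, so p-values measure only how far these libraries differ from each other, possibly for technical reasons.

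Smooth muscle contracts when myosin heads pull on actin filaments. Phosphorylation of the regulatory myosin light chain switches the myosin on, tropomyosins run along the actin filament, calponin and transgelin bind actin, and desmin ties the filaments to the rest of the cell. Many of these genes are switched on by serum response factor (SRF) with a cofactor, myocardin in smooth muscle or the myocardin-related factors MRTF-A and MRTF-B in other cells, through a DNA element called the CArG box. TEAD factors, the DNA-binding partners of YAP, act on some of the same genes. In the testis the peritubular myoid cells around the tubules carry this programme, as do the muscle cells of vessel walls; activated fibroblasts in culture also make Acta2 and Tagln, while Myh9 and Tpm1 are used by nearly every cell.

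The promoter letters that bear on this control are shown because these genes were all higher in p57 KO libraries. They come from RefSeq promoters (GRCm38.p6, the assembly of mm10), which run from 250 bases before to 50 bases after a gene's start and hold 7 of the 10 genes, without Tagln, Myh11 and Actg2. Each line is a window of 30 bases, 5′ to 3′ on the gene's strand, with the match in capitals. The first 4 lines hold CArG boxes, in which all 6 inner letters are A or T, or CArG-like boxes, in which at least 5 of them are; the last 2 hold GGAATG, the motif of TEAD factors.
Acta2, CArG-like, chr19:34255438-34255467, minus strand: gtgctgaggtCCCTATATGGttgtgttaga
Acta2, CArG-like, chr19:34255388-34255417, minus strand: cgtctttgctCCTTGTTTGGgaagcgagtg
Myl9, CArG, chr2:156775293-156775322, plus strand: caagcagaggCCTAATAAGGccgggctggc
Myl9, CArG-like, chr2:156775355-156775384, plus strand: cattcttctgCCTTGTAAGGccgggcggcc
Acta2, TEAD motif, chr19:34255502-34255531, minus strand: gagcagaacagaGGAATGcagtggaagaga
Tpm1, TEAD motif, chr9:67049252-67049281, minus strand: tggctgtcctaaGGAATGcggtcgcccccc

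The Acta2 boxes lie 84 to 75 and 34 to 25 bases before the start, and the Myl9 boxes 161 to 152 and 99 to 90 bases before it. The TEAD motif lies 146 to 141 bases before the Acta2 start and 56 to 51 bases before that of Tpm1. All these starts are those of the RefSeq promoters. For Acta2 and Tpm1 they lie inside the gene bounds given below, which come from another annotation. A full CArG box was in 1 of the 7 promoters and in 1.63% of 32851 mouse promoters of the same length. CArG-like boxes, full ones included, were in 2 of 7 and in 9.98% of all, and GGAATG, searched on both strands, in 2 of 7 and in 14.7% of all. The CArG pattern reads the same on both strands, and the motifs do not overlap each other in these windows. A match describes letters and shows no binding, and these counts of 7 are too small to be read against the shares of all promoters.

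The libraries held 15662833 to 17893671 counts each. Cdkn1c, which checks the labels, had 8.89 ± 0.486 CPM in p57 KO and 20.7 ± 0.782 CPM in control (SD, n = 3 each), a log2 fold change of -1.22 (SE 0.09; adjusted p = 4.07e-09). CPM are counts scaled to a common library total with TMM. All tests are edgeR's quasi-likelihood test with Benjamini-Hochberg adjustment over 14814 genes, called at an adjusted p under 0.05, and fold changes are log2 of p57 KO over control with their standard error (SE). Of all tested genes, 23.3% were called, 11.6% higher and 11.6% lower, and the median log2 fold change was -0.0019. Genes of smooth muscle were unevenly present. Myocd, which encodes myocardin, had 2 counts over all 6 libraries, Lmod1 (leiomodin, an actin nucleator of smooth muscle) had 1 or 2 counts in each, and Pln (phospholamban, a calcium pump inhibitor) had 0 in each. Others that more cell types use were well above that, such as Smtn (smoothelin; 70.8 CPM in p57 KO and 64.7 CPM in control), Cald1 (caldesmon; 63.8 and 27.4 CPM) and Mylk (the light chain kinase; 25.9 and 26.5 CPM), all chosen after their values were seen. The 10 genes are described as contractile genes, with no cell type named from them. In RNA from whole cultures, more cells that carry a transcript and more of it per cell cannot be told apart.

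All 10 genes were higher in each p57 KO library than in any control library. The groups lay apart in that direction in 15.5% of the 23200 genes with a count and in 19.5% of the tested genes. Of the 8 tested genes 7 rose, against 11.6% of all tested genes, none fell and Tpm2 did not pass, and their median log2 fold change was 0.67. With DESeq2 6 were called higher, against 9.47% of all genes, and in a test against a fold of 1.2 only Tagln and Des were, against 2.79% of all. These 8 passed the filter on low counts in the control libraries alone as well. The sizes ran over a wide range: log2 fold changes were above 1 for Tpm2, Tagln and Acta2, 0.87 for Des, and under 0.5 for Myh11, Tpm1, Myl9 and Myh9. With 3 against 3 libraries an exact two-sided permutation test cannot go below 0.1, and each of the 10 genes reached that value.

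**Figure D1:**
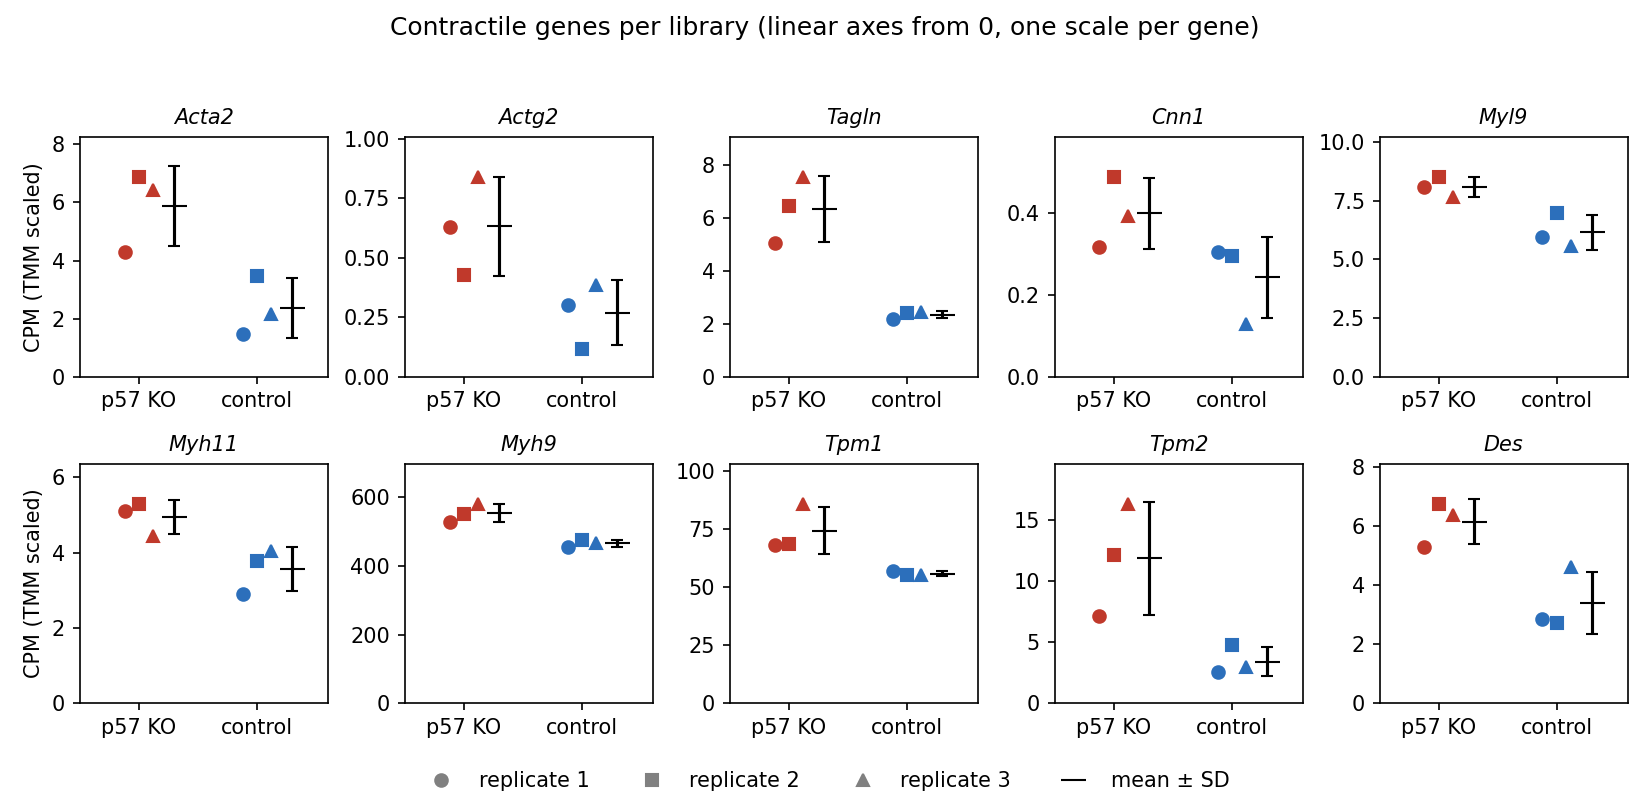
Level of each contractile gene (y axis, CPM after TMM scaling, linear from 0 with a scale of its own) in the p57 KO libraries (left, red) and the control libraries (right, blue); marker shapes give the replicate, and the bars are mean ± SD over 3 libraries. No gene's groups overlap, but the gap is wide for Tagln (6.35 against 2.34 CPM on average) and narrow for Cnn1 and Myh11.

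Acta2, the smooth muscle α-actin (chr19:34241090-34255590, minus strand, mm10), had 4.29, 6.88 and 6.44 CPM in p57 KO and 1.46, 3.47 and 2.17 CPM in control. The closest libraries, p57 KO replicate 1 and control replicate 2, had 68 and 59 counts. Acta2 rose by a log2 fold change of 1.31 (SE 0.29; adjusted p = 0.00972). Without control replicate 3 the call was lost (1.25; adjusted p = 0.0778). Actg2, the enteric γ-actin of smooth muscle (chr6:83512905-83536265, minus strand), had 10, 7 and 15 counts in p57 KO and 5, 2 and 6 in control. That is 0.631, 0.426 and 0.840 CPM in p57 KO and 0.303, 0.118 and 0.384 CPM in control, so the closest libraries were 1 count apart. Fitted with no filter on low counts it had a log2 fold change of 1.24 (SE 0.53; adjusted p = 0.0951), which did not pass.

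Tagln, or SM22α, a small actin-binding protein and an early marker of the smooth muscle programme (chr9:45929619-45936058, minus strand), gave the clearest rise. It had 5.05, 6.45 and 7.56 CPM in p57 KO and 2.18, 2.41 and 2.43 CPM in control. The control libraries lay close together, and every p57 KO library was above them by more than the spread of either group. Tagln rose by 1.44 (SE 0.18; adjusted p = 5.57e-06), and the call held without any single library. Its exons overlap those of Gm48529 over 1241 bases and of Pcsk7 over 108 bases on the other strand. The strand setting of the counting is not given, so its counts may hold reads of these genes or lack reads from the overlap. Per library Gm48529 had 84 to 121 counts and Pcsk7 332 to 372, while Tagln had 36 to 135. Cnn1, basic calponin, which binds actin and slows myosin's ATPase (chr9:22099216-22109630, plus strand), had 5, 8 and 7 counts in p57 KO and 5, 5 and 2 in control. As CPM these were 0.316, 0.487 and 0.392 in p57 KO and 0.303, 0.294 and 0.128 in control, and the fit with no filter did not call it (0.69, SE 0.61; adjusted p = 0.529). The gap between the groups in Cnn1 comes from library size alone in the closest pair, since both had 5 counts.

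The myosin genes moved by little. Myl9, the regulatory light chain typical of smooth muscle (chr2:156775420-156781658, plus strand), had 8.08, 8.52 and 7.67 CPM in p57 KO and 5.95, 7.003 and 5.56 CPM in control. It rose by 0.39 (SE 0.13; adjusted p = 0.0352). This call was lost with DESeq2 (adjusted p = 0.143) and without p57 KO replicate 2 (0.123), control replicate 1 (0.107) or control replicate 3 (0.146).

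Myh11, the smooth muscle myosin heavy chain and the most specific marker of that cell type here (chr16:14194535-14291372, minus strand), had 5.11, 5.30 and 4.42 CPM in p57 KO and 2.91, 3.77 and 4.03 CPM in control. The lowest p57 KO library lay only narrowly above the highest control library. Myh11 rose by 0.47 (SE 0.17; adjusted p = 0.0481), close to the threshold. The adjusted p was 0.190 with DESeq2, 0.0508 with limma-voom, and 0.0552 to 0.220 without any 1 of the libraries other than p57 KO replicate 3; only without p57 KO replicate 3 did it hold.

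Myh9, the heavy chain of non-muscle myosin IIA (chr15:77760587-77842175, minus strand), had 529, 551 and 582 CPM in p57 KO and 455, 477 and 466 CPM in control. It rose by only 0.25 (SE 0.03; adjusted p = 1.91e-05), and the call held without any single library. Of the 13160 windows of 76 bases in its transcripts, 47 (0.357%) also occur in Myh10; the other 9 genes share none with another gene's transcripts.

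Both tropomyosins were higher in p57 KO, by different amounts. Tpm1, α-tropomyosin (chr9:67022590-67049406, minus strand), had 68.3, 68.6 and 86.0 CPM in p57 KO and 56.96, 55.5 and 55.1 CPM in control. p57 KO replicate 3 stood above the other libraries of its group, while the control libraries lay close together. Tpm1 rose by 0.41 (SE 0.10; adjusted p = 0.0287), and the call was lost without any 1 control library (adjusted p = 0.112, 0.0982 and 0.116 without replicate 1, 2 and 3).

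Tpm2, β-tropomyosin (chr4:43514711-43523765, minus strand), had the largest fold change of the 8 tested genes, with the largest standard error. It had 7.13, 12.2 and 16.4 CPM in p57 KO and 2.55, 4.77 and 2.94 CPM in control. Its log2 fold change of 1.80 (SE 0.44) had an adjusted p of 0.0531 and was not called. It was called with DESeq2 (adjusted p = 0.000796), without p57 KO replicate 1 (2.05; adjusted p = 3.07e-05) and without p57 KO replicate 3 (1.49; adjusted p = 0.0318).

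Des, the muscle intermediate filament desmin (chr1:75360329-75368579, plus strand), had 5.30, 6.76 and 6.39 CPM in p57 KO and 2.85, 2.71 and 4.60 CPM in control. Control replicate 3 was well above the other control libraries and still below every p57 KO library. Des rose by 0.87 (SE 0.19; adjusted p = 0.002), also without any single library. It overlaps Gm15179 on the other strand over 220 bases, but that gene had at most 1 count in a library.

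Per length the genes differed widely in level. Divided by the combined length of the gene's exons, Myh9 had the highest level, 42.8 CPM per kb in p57 KO and 36.1 in control. Tpm1 (11.5 and 8.61 CPM per kb in p57 KO and control) and Myl9 (6.96 and 5.31) came next. Tpm2 had 4.09 ± 1.59 CPM per kb in p57 KO and 1.18 ± 0.407 in control, Tagln 3.20 and 1.18, and Acta2 2.67 and 1.08; in control these 3 did not differ beyond their spread. Des (1.64 in p57 KO and 0.902 in control), Myh11 (0.651 and 0.470), Actg2 (0.406 and 0.172) and Cnn1 (0.146 and 0.0884) were lowest. Myh9 and Tpm1, which nearly all cells use, were thus highest per length, and Actg2 and Cnn1 lowest.

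Set within their own protein families, the muscle-type genes were minor parts. On the per-length scale the muscle actins Acta2, Actg2, Acta1 and Actc1 made up 0.368%, 0.508% and 0.510% of all 6 actins in p57 KO and 0.124%, 0.234% and 0.188% in control, the rest being the cytoplasmic β- and γ-actins Actb and Actg1. Tagln made up 3.64%, 4.70% and 5.31% of the transgelins in p57 KO and 1.63%, 1.83% and 1.91% in control. Tpm2 made up 3.72%, 5.57% and 6.73% of the 4 tropomyosins in p57 KO and 1.43%, 2.64% and 1.69% in control. In these families the muscle-type share was higher in every p57 KO library. Myh11 was 1.26%, 1.26% and 1.003% of its heavy chain family in p57 KO and 0.842%, 1.03% and 1.12% in control, and there the groups overlapped. The share of Myh9 also overlapped, at 76.8%, 77.0% and 77.5% in p57 KO and 77.3%, 76.6% and 76.4% in control.

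Ratios within a library gave the same order. The log2 ratio of Acta2 to Actb averaged -8.17 ± 0.374 in p57 KO and -9.50 ± 0.626 in control (SD, n = 3 each; difference 1.33, exact two-sided permutation p = 0.1). That of Tpm2 to Tpm1 averaged -2.72 ± 0.474 in p57 KO and -4.08 ± 0.487 in control (difference 1.37; exact permutation p = 0.1). For Myh11 to Myh9 the averages were -6.81 ± 0.198 in p57 KO and -7.04 ± 0.222 in control (difference 0.23; exact permutation p = 0.3). The smooth muscle actin and β-tropomyosin thus separated the groups against their common relatives, and the smooth muscle myosin did not.

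**Figure D2:**
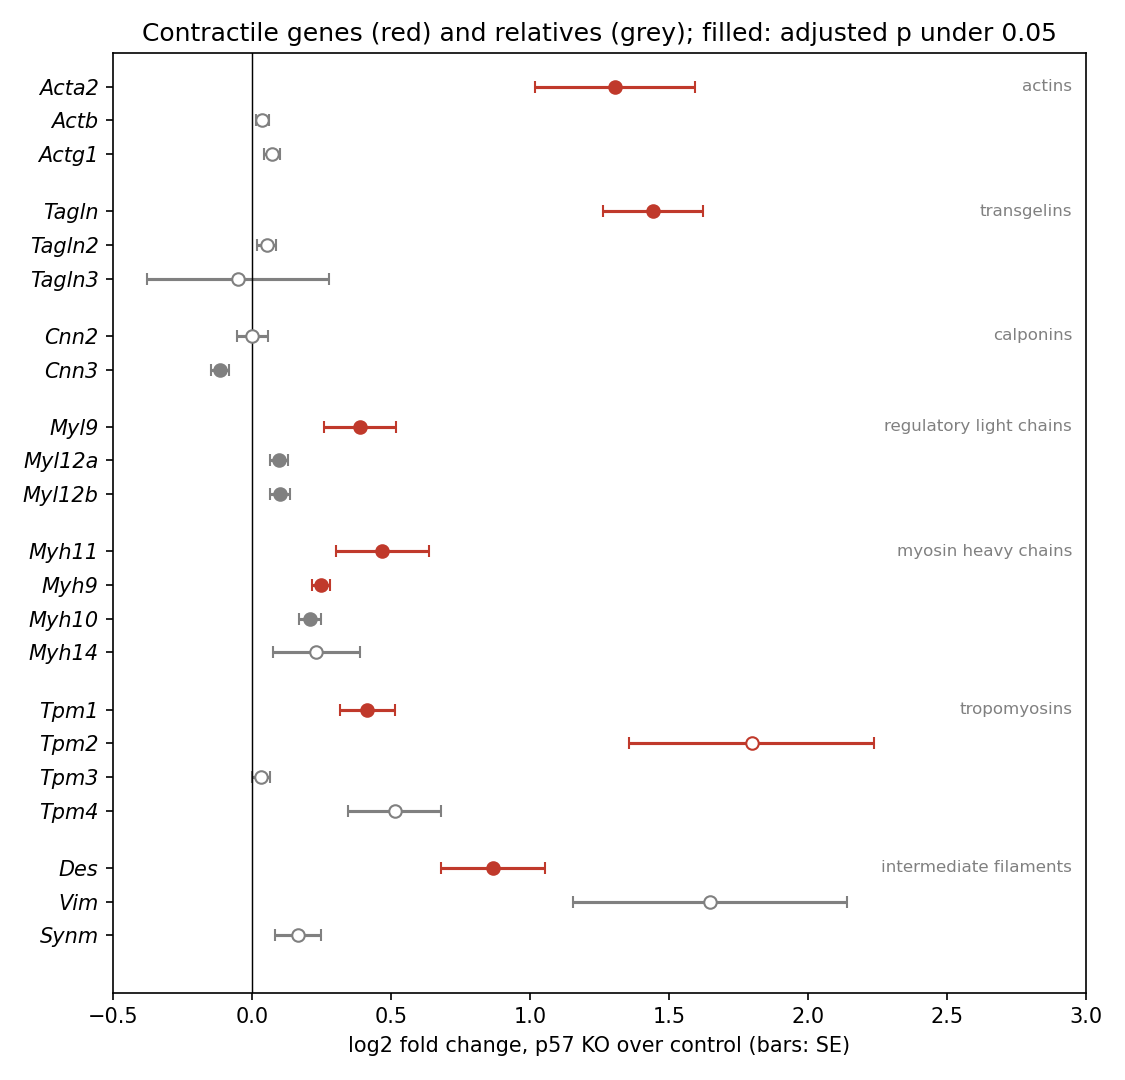
Log2 fold change of p57 KO over control (x axis; bars are SE) for the tested contractile genes (red) and the tested relatives of the same protein families (grey); filled points passed an adjusted p of 0.05. Acta2, Tagln and Tpm2 lie far to the right of Actb, Tagln2 and Tpm3, Tpm4 (0.51) lies near Tpm1 (0.41), and Myh11, Myh9 and Myh10 lie close together.

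Among 19 relatives of these genes, 15 were tested, 3 rose, 1 fell and 11 did not pass, with a median log2 fold change of 0.10. Of all tested genes 11.6% rose and 11.6% fell. Myh10, non-muscle myosin IIB, had 120 CPM in p57 KO and 104 CPM in control and rose by 0.21 (SE 0.04; adjusted p = 0.00049). The non-muscle regulatory light chains Myl12a and Myl12b rose by 0.10 each (adjusted p = 0.0436 and 0.0431); Myl12a lost its call without any 1 of the libraries other than p57 KO replicate 1 (adjusted p = 0.0551 to 0.183), and Myl12b without p57 KO replicate 1 or 2 or control replicate 1 or 2 (0.0804 to 0.199). Both also lost it with DESeq2 (adjusted p = 0.115 for Myl12a and 0.140 for Myl12b). Cnn3, acidic calponin, had 130 CPM in p57 KO and 141 CPM in control and fell by 0.12 on the log2 scale (SE 0.03; adjusted p = 0.0106). Myl6, an essential light chain, had a log2 fold change of 0.31 (adjusted p = 0.0522), which was called with DESeq2 (adjusted p = 0.000106) and without p57 KO replicate 1 (0.39; adjusted p = 4.14e-07) or 3 (0.24; adjusted p = 0.00388). Actg1 had one of 0.07 (adjusted p = 0.0867), called without p57 KO replicate 1 (adjusted p = 0.0136). Tpm4, a non-muscle tropomyosin chosen after its values were seen, had 42.98, 56.6 and 63.9 CPM in p57 KO and 36.9, 39.9 and 38.0 CPM in control, and its log2 fold change of 0.51 (SE 0.17) was not called (adjusted p = 0.104), but was with DESeq2 (0.0238) and without p57 KO replicate 1 (0.65; adjusted p = 2.17e-09). Vim, the vimentin of fibroblasts and chosen after its values were seen, had 98.6, 172 and 272 CPM in p57 KO and 43.6, 75.8 and 54.3 CPM in control (1.65, SE 0.49; adjusted p = 0.0901); it was called without p57 KO replicate 1 (1.94; adjusted p = 0.0421) and with DESeq2 (adjusted p = 0.00485).

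Beyond the 10 genes, 30 other genes of the smooth muscle programme were listed. Of the 26 tested, 8 rose, 1 fell and 17 did not pass, against 11.6% of all tested genes in each direction. Their median log2 fold change was 0.32. The lists share some genes, so their counts are not separate. Myl6 is also among the relatives, and Vcl and Tgfb1i1 are also among the SRF and YAP targets below. Ldb3, a Z-line protein that binds α-actinin, had 3.35, 3.17 and 2.91 CPM in p57 KO and 1.76, 1.06 and 1.47 CPM in control and rose by 1.13 (SE 0.23; adjusted p = 0.001). Itga8, an integrin subunit of smooth muscle and mesenchymal cells, had 17, 32 and 43 counts in p57 KO and 1, 9 and 10 in control and rose by 2.14 (SE 0.48; adjusted p = 0.00485). Both calls held without any single library.

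The other named genes of that list moved by little or had few reads. Flna, the actin crosslinker filamin A, rose by 0.11 (SE 0.03; adjusted p = 0.00934), and Csrp1, a LIM protein on actin filaments, by 0.17 (SE 0.05; adjusted p = 0.0141). Nexn, an F-actin-binding protein, had 12, 14 and 25 counts in p57 KO and 4, 9 and 6 in control and rose by 1.37 (SE 0.42; adjusted p = 0.0206). Itga7, a laminin receptor of muscle, had 36.9 CPM in p57 KO and 41.5 CPM in control and fell by 0.17 on the log2 scale (SE 0.06; adjusted p = 0.0344). All 4 calls depended on single libraries, and those of Csrp1 (adjusted p = 0.0772), Nexn (0.116) and Itga7 (0.149) were also lost with DESeq2. Flna lost it without p57 KO replicate 2, control replicate 1 or control replicate 3 (adjusted p = 0.0517 to 0.0719), and Csrp1 without p57 KO replicate 2 (0.0620) or control replicate 3 (0.0836). Nexn lost it without p57 KO replicate 3 or control replicate 1 or 3 (adjusted p = 0.0696 to 0.144), and Itga7 without p57 KO replicate 1 or 3 or control replicate 2 or 3 (0.0710 to 0.167). Cald1, caldesmon, chosen after its values were seen, had a log2 fold change of 1.22 that was not called (adjusted p = 0.0629), but was with DESeq2 (adjusted p = 0.000862) and without p57 KO replicate 1 (1.41; adjusted p = 0.0394).

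The genes that act upstream of this programme moved in both directions. Of 22 such genes 21 were tested, 3 rose, 5 fell and 13 did not pass, with a median log2 fold change of -0.01. All tested genes rose in 11.6% and fell in 11.6% of cases. Srf itself had 89.9 ± 5.12 CPM in p57 KO and 98.0 ± 2.22 CPM in control and fell by 0.13 on the log2 scale (SE 0.04; adjusted p = 0.033); the call was lost with DESeq2 (adjusted p = 0.116) and without p57 KO replicate 3 (0.213), control replicate 1 (0.107) or control replicate 3 (0.102). Mrtfb fell by 0.09 on the log2 scale (adjusted p = 0.0309), a call lost without any 1 of the libraries other than p57 KO replicate 1 (adjusted p = 0.0608 to 0.147) and with DESeq2 (0.0899), and Mrtfa had a log2 fold change of -0.07 (adjusted p = 0.344). These 3 genes were chosen after their values were seen.

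Of the phosphatase that removes phosphate from the myosin light chain, a catalytic subunit and 1 of the targeting subunits fell. Ppp1cb had 265, 260 and 250 CPM in p57 KO and 324, 341 and 317 CPM in control and fell by 0.34 on the log2 scale (SE 0.03; adjusted p = 9.5e-08). Ppp1r12a, which brings that phosphatase to myosin, had 129 CPM in p57 KO and 142 CPM in control and fell by 0.15 (SE 0.04; adjusted p = 0.00533). Another targeting subunit, Ppp1r12b, had a log2 fold change of -0.04 that was not called (adjusted p = 0.712), and Ppp1r14a, an inhibitor of the phosphatase, rose by 0.81 (SE 0.28; adjusted p = 0.044); both were chosen after their values were seen. The call of Ppp1r14a was lost with DESeq2 (adjusted p = 0.156), limma-voom (0.0613), without p57 KO replicate 3 (0.341) and without any 1 control library (0.0530 to 0.182). Rhob, a small GTPase of actin control, had 52.1, 59.8 and 60.7 CPM in p57 KO and 41.5, 40.8 and 43.7 CPM in control and rose by 0.46 (SE 0.06; adjusted p = 7.53e-06).

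Genes of the TGF-β pathway, which induces Acta2 and Tagln in fibroblasts, went both ways. Tgfb3, a ligand, had 2.59, 5.11 and 5.04 CPM in p57 KO and 1.94, 2.24 and 2.11 CPM in control and rose by 1.02 (SE 0.24; adjusted p = 0.00391). Smad3, which carries the signal to the nucleus, rose by 0.19 (SE 0.05; adjusted p = 0.00701). Tgfbr1, a receptor, had 51.2 CPM in p57 KO and 61.3 CPM in control and fell by 0.26 on the log2 scale (SE 0.07; adjusted p = 0.0207), a call lost without p57 KO replicate 1 (adjusted p = 0.0573) or 3 (0.0744).

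Other known targets of SRF with MRTF or of YAP with TEAD were 22 genes, of which 21 were tested. Of these 8 rose, 1 fell and 12 did not pass, with a median log2 fold change of 0.29. Of all tested genes 11.6% rose and 11.6% fell. Among the 8, Myl12a was also counted with the relatives and Tgfb1i1 with the 30 other smooth muscle genes. Trim47 rose by 1.10 (SE 0.25; adjusted p = 0.00236), at 2.50 CPM in p57 KO and 1.16 CPM in control, and Flnc, filamin C of muscle, by 0.17 (SE 0.04; adjusted p = 0.00394). Both calls held without any single library.

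Other calls in that group depended on single libraries. Actn1, an α-actinin that crosslinks actin, had 116 CPM in p57 KO and 91.2 CPM in control (0.35; adjusted p = 0.0179). Fos, an immediate early gene that SRF drives, had 114 CPM in p57 KO and 80.7 CPM in control (0.50; adjusted p = 0.0278). Amotl2, a YAP target, had 50.8 CPM in p57 KO and 58.1 CPM in control (-0.19; adjusted p = 0.0227). Ccn2, connective tissue growth factor and chosen after its values were seen, had 1.96, 3.47 and 6.16 CPM in p57 KO and 1.03, 1.41 and 0.831 CPM in control (1.82; adjusted p = 0.0399). Actn1 lost its call without p57 KO replicate 2 or control replicate 1 or 3 (adjusted p = 0.0859 to 0.0874), and Fos without p57 KO replicate 1 or control replicate 1 or 2 (0.0797 to 0.0898). Amotl2 lost it without p57 KO replicate 2 or control replicate 2 or 3 (adjusted p = 0.0903 to 0.115) and with DESeq2 (0.0618), and Ccn2 without p57 KO replicate 2 or any 1 control library (0.0727 to 0.169) and with limma-voom (0.101).

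Markers of other cells were set beside the contractile genes. A list of 24 fibroblast and feeder cell markers, mostly collagens and other matrix genes, summed to 1610, 2167 and 3235 CPM in p57 KO and 999.5, 1296 and 1023 CPM in control. Fn1, fibronectin, was the highest of them, at 842 ± 311 CPM in p57 KO and 414 ± 55.2 CPM in control, and none was at 0. Together with Col5a1, the next highest, it made up a large part of the sum. The log2 fold changes of Fn1 (1.02) and Col5a1 (0.29) were below the list's median, so the sum leans on markers that rose less. All 24 had a log2 fold change above 0 (median 1.49). Of them 21 were higher in each p57 KO library than in any control library, against 19.5% of all tested genes. Of the 24, all tested, 4 were called higher, beside 11.6% of all tested genes. Among the contractile genes, Tpm2 and Myh9 had their highest and lowest library in the same places as this sum, p57 KO replicates 3 and 1 and control replicates 2 and 1.

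**Figure D3:**
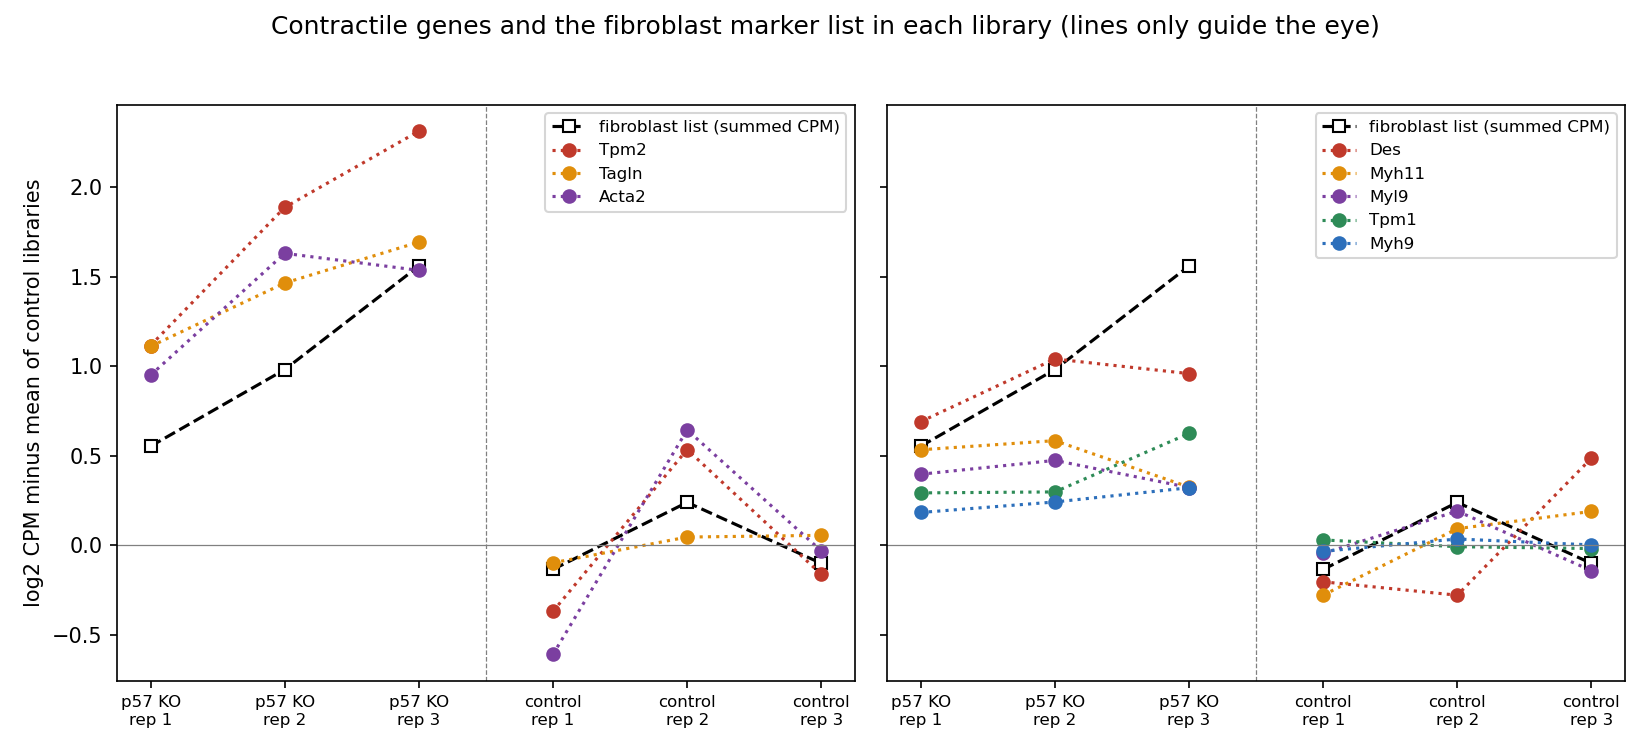
Log2 CPM relative to the mean of the control libraries (y axis) in each library (x axis, p57 KO left and control right) for the contractile genes that changed most (left panel) and the other tested ones (right panel), with the summed fibroblast markers as open squares; lines only guide the eye. In p57 KO, Tpm2, Tagln and Acta2 lie above the fibroblast sum, except Acta2 in replicate 3, which is just below it, and Myl9, Tpm1 and Myh9 lie below it. The sum leans on Fn1 and Col5a1. The median log2 fold change of the 24 markers (1.49) was above those of Tagln (1.44) and Acta2 (1.31).

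Divided by the fibroblast sum of the same library, the contractile genes no longer moved one way. The sum itself was higher in each p57 KO library than in any control library. A gene that rose by much less than the sum therefore had to come out lower on this scale. Tpm2 had 4.43, 5.62 and 5.06 CPM per 1000 CPM of fibroblast markers in p57 KO and 2.55, 3.68 and 2.87 in control, and remained higher in each p57 KO library. Acta2 had 2.66, 3.17 and 1.99 in p57 KO and 1.46, 2.68 and 2.12 in control, and Tagln 3.14, 2.98 and 2.34 in p57 KO and 2.19, 1.86 and 2.37 in control, so that the groups overlapped. Des, Myh11, Cnn1 and Actg2 overlapped too. Myl9, Tpm1 and Myh9 were lower in each p57 KO library on this scale; Tpm1 had 42.4, 31.7 and 26.6 in p57 KO and 56.99, 42.8 and 53.8 in control.

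**Figure D4:**
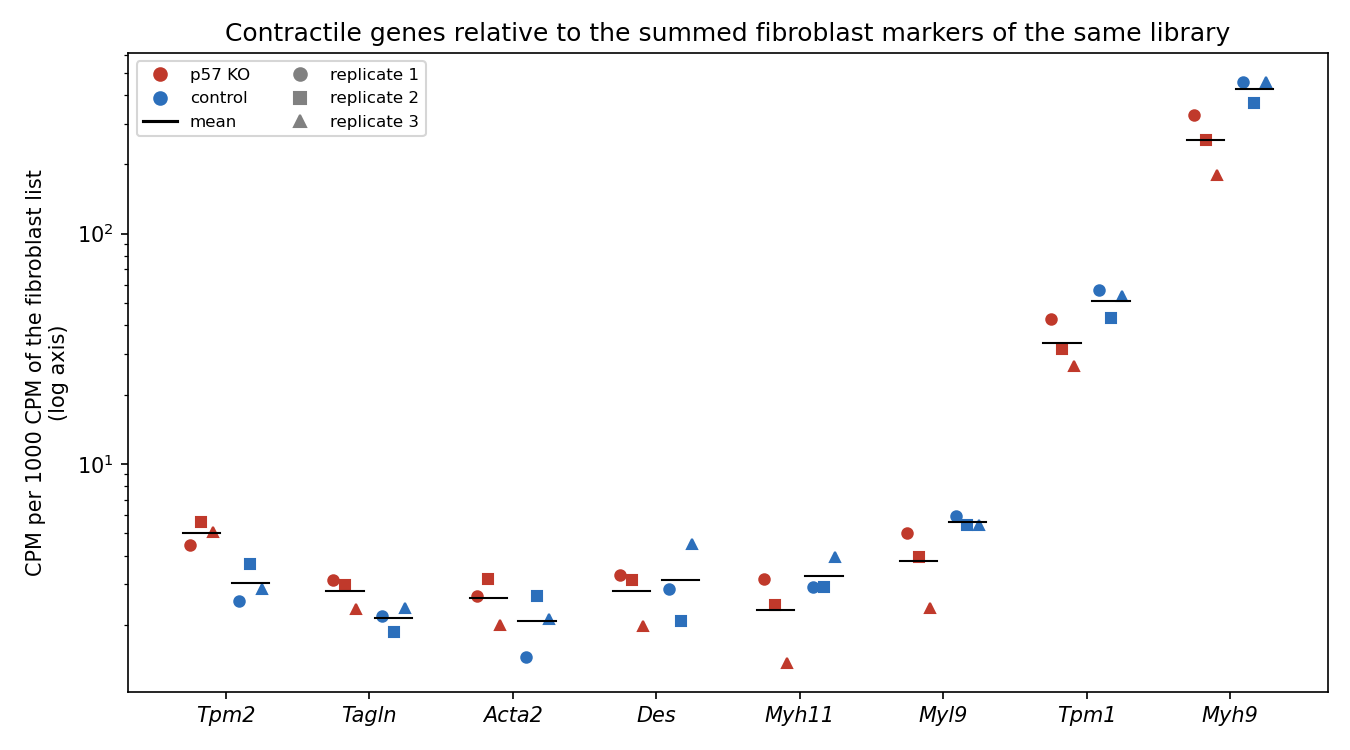
Contractile genes per 1000 CPM of the summed fibroblast markers of the same library (y axis, log scale), p57 KO left and control right for each gene; points are libraries, shapes give the replicate and lines the mean of 3. Tpm2 stays higher in every p57 KO library, Tagln, Acta2, Des and Myh11 overlap, and Myl9, Tpm1 and Myh9 are lower. The sum was higher in each p57 KO library, so genes that rose by much less than it had to come out lower.

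With a covariate for these markers, the mean log2 CPM of all 24, the fit called none of the 8 tested genes higher or lower, against 1.44% of all tested genes called higher. This was edgeR's quasi-likelihood test, run in no other tool, and 3 of the 8, Tagln, Des and Myh9, had an unadjusted p under 0.05. The share of all tested genes under that unadjusted threshold is not given here, so these 3 are not read as a remaining difference. The fitted log2 fold changes remained above 0, at 0.85 for Tagln (adjusted p = 0.133), 0.79 for Des (0.208), 0.60 for Myh11 (0.386), 0.47 for Acta2 (0.602), 0.39 for Tpm2 (0.512), 0.32 for Myl9 (0.619), 0.11 for Tpm1 (0.676) and 0.10 for Myh9 (0.323). The score itself was 4.70, 5.27 and 5.84 in p57 KO and 3.80, 4.36 and 3.81 in control. Its groups do not overlap, so genotype and score cannot be told apart in these libraries.

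The summed markers of other cells that carry contractile genes differed less, but each sum was set by a few genes. Markers named here and in the next paragraph that are not among the highest of their list were chosen after their values were seen. The counts called in both paragraphs stand beside 11.6% of all tested genes called higher and 11.6% called lower. The 13 markers of peritubular myoid cells, 5 of them among the contractile genes themselves, summed to 139 to 148 CPM in p57 KO and 137 to 140 CPM in control. Of the 10 tested, 5 rose and 1 fell. The 5 were Acta2, Des and Myh11, with Nr2f2 (log2 fold change 1.51, adjusted p = 0.0149) and Pdgfra (0.61, adjusted p = 0.00689). Pdgfra is also on the fibroblast list. The one that fell was Ptch1, the hedgehog receptor and the highest of the list, at 59.1 CPM in p57 KO and 70.3 CPM in control, and Tcf21 was at 0. The 10 markers of pericytes and vessel walls summed to 1155 to 1187 CPM in p57 KO and 1123 to 1216 CPM in control, nearly all of it Mcam, and Higd1b and Kcnj8 were at 0. Of the 7 tested, 3 rose and none fell, with a median log2 fold change of 1.26: Notch3 had 35.0 CPM in p57 KO and 14.6 CPM in control, Cspg4 6.42 and 2.19 CPM, and Ednra 4.73 and 1.76 CPM. The call of Notch3 was lost without p57 KO replicate 2 (adjusted p = 0.0600) or control replicate 3 (0.0748), and that of Cspg4 without control replicate 1 (0.0543). Pdgfrb, which was not called, had 2.59, 6.64 and 11.7 CPM in p57 KO and 2.06, 3.77 and 1.73 CPM in control, and its groups overlapped. The 17 markers of skeletal and cardiac muscle summed to 187 to 204 CPM in p57 KO and 178 to 187 CPM in control, mainly Actn2, Ryr1 and Myh3. Of the 8 tested, Ryr1 (log2 fold change 0.35), Tnni3 (0.39) and Tnnt2 (0.96) rose and none fell; Tnni3 lost its call with DESeq2 (adjusted p = 0.0938) and without p57 KO replicate 1 (0.0609) or control replicate 1 (0.0764). Of the muscle-determining factors Myf5 and Myf6 were at 0, while Myog had 19, 22 and 22 counts in p57 KO and 15, 10 and 15 in control (0.62; adjusted p = 0.163).

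Among the remaining cells of the testis, the 12 Sertoli cell markers summed to 92.6 to 97.0 CPM in p57 KO and 91.9 to 99.9 CPM in control, and the 7 Leydig cell markers to 3.25 to 3.35 CPM in p57 KO and 3.00 to 3.94 CPM in control, with Hsd3b1 at 0. The 8 endothelial markers summed to 115 to 119 CPM in p57 KO and 124 to 131 CPM in control, and the 9 macrophage markers to 24.0 to 28.7 CPM in p57 KO and 25.0 to 25.9 CPM in control. All 4 tested macrophage markers were called, Cd14 (log2 fold change 1.30), Cd68 (0.40) and Lyz2 (2.13) higher and Mrc1 (-1.07) lower; Cd14 lost its call with DESeq2 (adjusted p = 0.108) and without p57 KO replicate 2 or 3 or control replicate 1 (0.0573 to 0.106). Among the tested Sertoli cell markers 1, Clu, rose (not without p57 KO replicate 2 or control replicate 1 or 3, with an adjusted p of 0.0579 to 0.0742), and among the endothelial ones Tek rose and Cdh5 and Kdr fell. The 16 germ cell markers summed to 4281 to 4502 CPM in p57 KO and 4906 to 4951 CPM in control, with 9 lower, 2 higher and none at 0. Dazl, an RNA-binding protein of germ cells, had 939 CPM in p57 KO and 1115 CPM in control, so germ cell RNA was present in both groups. The part of these cell types in the differences of the contractile genes was not tested.

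Genes with a profile close to that of Acta2 or Tagln were sought among 11964 genes, by the mean absolute difference in log2 CPM over the 6 libraries, each gene taken relative to its control mean. The choice used the same libraries, so fold changes near those of Acta2 and Tagln follow from it, and the calls below are no separate support. Closest to Acta2 were Fgf2 (a growth factor; difference 0.137), Ltbp2 (a matrix protein; 0.141) and Etv1 (a transcription factor; 0.152). Of these Etv1 rose (1.43; adjusted p = 0.00257), while Fgf2 (1.41; adjusted p = 0.058, called without p57 KO replicate 1 or 3 or control replicate 2) and Ltbp2 (1.56; adjusted p = 0.0971) were not called; DESeq2 called both (adjusted p = 0.000229 for Fgf2 and 0.0127 for Ltbp2). Closest to Tagln were Mapk13 (a p38 kinase; difference 0.0416), Arhgap22 (a GTPase-activating protein; 0.0995) and Msx1 (a homeobox factor; 0.102). All 3 rose, Mapk13 by 1.41 (adjusted p = 4.92e-06), Arhgap22 by 1.36 (adjusted p = 0.000289) and Msx1 by 1.42 (adjusted p = 7e-05). With the fibroblast covariate none of these 4 calls held: the adjusted p was 0.881 for Etv1 (log2 fold change 0.22), 0.155 for Mapk13 (0.76), 0.593 for Arhgap22 (0.43) and 0.169 for Msx1 (1.05).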

How the data were processed

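Stranded mRNA libraries were sequenced as single reads of 76 bp. Per the submitters' processing notes, reads were handled with HISAT2 2.2.1, HTSeq 2.0.2, cutadapt 3.4 and bcl2fastq 2.20 on the build mm10; the sources used here give no annotation, strand setting or rule for multiply mapped reads. The authors deposited raw gene counts without normalization. Of 32285 identifiers, 32235 were found in GENCODE M21, which gave positions and combined exon lengths.

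The 10 genes and the gene lists were chosen with earlier results of these data known. Counts were filtered with filterByExpr (cutoff 0.608 CPM), scaled by TMM and tested with edgeR 4.0.16 (robust quasi-likelihood F-test, group as the only term; limma 3.58.1, R 4.3.3), which was tested on simulated data. The common coefficient of variation was 4.35%, so small differences of well expressed genes pass. A pseudocount of 0.1 CPM was used for profiles and for the permutation tests of the 10 genes, and none for the ratios. Replicates of a group differed by more than sampling noise (chi-square per degree of freedom 1.69 to 5.97), and no library was counted as a duplicate.

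Text names were set by rule: the 10 genes, Cdkn1c, up to 6 genes of smallest p from each of 4 lists, up to 3 of highest level per marker list, and the 3 closest profiles of Acta2 and Tagln; 1 gene that the rule names is not reported here. Alternatives were DESeq2 1.42.0, limma-voom and RLE size factors, a filter of 1 CPM in 3 libraries and none, a replicate block, fits without each library, a test against a fold of 1.2, and a fibroblast marker score as covariate.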

Additional observations from a re-analysis of the deposited data

How the results depend on the processing

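The number of contractile genes called higher, 7, was 2 in a test against a fold of 1.2, 0 with the fibroblast score as covariate, and 3 to 8 with single libraries left out. For the 30 other smooth muscle genes, the 8 called higher became 2 with the fold of 1.2, 1 with the covariate and 2 to 10 with a library left out, and the 1 called lower became 0 with DESeq2 and with the fold of 1.2, and 0 to 1 with a library left out. For the relatives, the 3 higher became 5 with no filter, 0 with the fold of 1.2, 0 with the covariate and 1 to 6 with a library left out, and the 1 lower became 0 with the fold of 1.2 and with the covariate. For the upstream genes, the 3 higher became 0 with the covariate and 3 to 5 with a library left out, and the 5 lower became 3 with DESeq2, 0 with the fold of 1.2, 2 with the covariate and 2 to 4 with a library left out. For the SRF and YAP targets, the 8 higher became 5 with limma-voom, 2 with the fold of 1.2, 0 with the covariate and 3 to 9 with a library left out, and the 1 lower became 0 with DESeq2, 2 with no filter, 0 with the fold of 1.2, 0 with the covariate and 0 to 2 with a library left out. Over all genes, 1725 were called higher and 1725 lower. With the fold of 1.2 these were 414 higher and 55 lower, with the covariate 214 and 142, with a library left out 1180 to 2136 and 1178 to 1893, and with DESeq2 1044 lower. With the covariate the log2 fold changes of Flna (-0.0087), Myl12a (-0.025), Myl6 (-0.020), Fgf2 (-0.029), Vim (-0.024), Tpm4 (-0.040), Ccn2 (-0.063), Srf (0.033) and Mrtfa (0.071) changed sign; the cause was not tested.

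Replicates with equal numbers did not deviate together (r = 0.19, 0.02 and -0.10), so the numbers are not read as pairs. With the replicate number as a block, 8 contractile genes were called higher (Tpm2 with an adjusted p of 1.76e-05), 5 relatives higher (Tpm4 with an adjusted p of 0.00868) and 2 of the SRF and YAP targets lower. The share of all tested genes called in the blocked fit is not given here, so these counts are not read as stronger than those without it. The log2 difference of the ratios ranged over 1.04 to 1.66 for Acta2 to Actb, 1.17 to 1.64 for Tpm2 to Tpm1 and 0.11 to 0.35 for Myh11 to Myh9 with single libraries left out. Cnn1 and Actg2, at 15 counts or fewer per library, are limited by depth. Groups of 3 libraries were not tested for single outlying libraries.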
